A study of Mus musculus with 4 samples.

Results

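The 8 genes described here encode factors that hold and feed blood-forming cells in the marrow and the receptors that read them. They were taken by symbol from the 53703 features of the deposited matrices, and each symbol matched 1 row. The ligands are *Cxcl12*, a chemokine that retains stem and progenitor cells; *Kitl*, also called stem cell factor; *Il7*, which B cell precursors need; and *Csf1* and *Il34*, which both act on the macrophage receptor Csf1r. The receptors are *Kit*, which binds the Kitl protein, *Cxcr4*, the signalling receptor of Cxcl12, and *Ackr3*, which takes up Cxcl12 and clears it.

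In adult marrow, reticular cells that carry the leptin receptor surround the sinusoids and are known as the main source of Cxcl12 and Kitl, and endothelial cells supply both as well. Stem and progenitor cells respond through Cxcr4 and Kit. Some endothelial cells express these receptors too, and Ackr3 on stromal and vascular cells shapes Cxcl12 gradients. This is background and not a result of these data.

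Single-cell RNA of bone stroma was measured in mice 12 weeks old, in 2 mutant and 2 control libraries. The mutants (Lats2iECKO) carried loxP-flanked *Lats2* alleles and the *Cdh5(PAC)-CreERT2* transgene, which drives a tamoxifen-activated recombinase from an endothelial promoter. *Lats2* encodes a kinase of the Hippo pathway that restrains the co-regulators YAP1 and TAZ. Controls were littermates without Cre. Their GEO treatment label reads "untreated", whereas the methods give the same tamoxifen course to both genotypes. All mice were on a C57BL/6 background. The methods state that both sexes were used in the study, without naming the sex of each library. The number of mice per library is not given in the sources used here. The tissue was the metaphysis of femur and tibia. Cells were digested out of crushed bone and depleted of lineage-positive cells and then of cells binding CD45 or CD117 beads. CD117 is the Kit protein itself, so cells with surface Kit were removed to an unknown degree before any *Kit* transcript was counted.

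Of all barcodes, 27707 had at least 1000 UMIs (unique molecular identifiers, each standing for 1 captured transcript) and 800 genes. These were 5749 and 6703 barcodes in the mutant and 7606 and 7649 in the control libraries, with medians between 7188 and 7848 UMIs. The transcript of the Cre-ERT2 transgene checks the labels. In the endothelial gate it stood at 55.5 and 51.2 CPM (a gene's UMIs scaled to a common total of all UMIs) in the mutant libraries and at 0.707 and 0.956 CPM in the controls. *Lats2* itself was at 91.8 and 95.3 against 134 and 121 CPM there. Whether its counted reads lie in the deleted part was not tested. Kept barcodes shared between any pair of libraries numbered 7 to 22.

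Cells were assigned by marker genes that include none of the 8. A reticular barcode had a UMI of at least 4 of 6 markers, among them *Lepr* and *Adipoq*. The metaphyseal stromal gate asked for 3 of 6 (*Wif1*, *Postn*, *Limch1* and others), the osteoblast gate for 6 of 8 (*Bglap*, *Ibsp*, *Dmp1* and others) and the endothelial gate for 4 of 7 (*Cdh5*, *Pecam1*, *Emcn* and others). The 4 gates held 4231, 1206, 1377 and 2772 barcodes in that order, 9586 in all. In each gate all of its own markers were above 10 CPM on average. The metaphyseal stromal gate also held osteoblast markers, which summed to 3482 and 4929 CPM in the mutants and 5830 and 5897 CPM in the controls, against 3351, 3006, 6134 and 5650 CPM for its own. In the osteoblast gate the osteoblast markers summed to 156800 and 130400 CPM in the mutants and 167600 and 162300 CPM in the controls. The metaphyseal stromal markers summed to 149 and 248 against 128 and 140 CPM there. The name of the metaphyseal stromal gate stands for the rule that chose its barcodes. How far these include cells of the osteoblast line was not tested. Another 1746 barcodes passed 2 or more gates and were left out as possible doublets. For that count the metaphyseal stromal gate asked for 4 of its markers. A barcode with 3 of them that passed 1 other gate was kept in that other gate alone. In all, 1269 barcodes were left out of the metaphyseal stromal gate for passing another, more than the 1206 it kept. The reticular gate held 7.65% and 7.97% of kept barcodes in the mutant libraries and 21.8% and 20.9% in the controls. Free RNA in the droplets, estimated from hemoglobin transcripts, made up between 0.813% and 4.25% of the UMIs of a gate.

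*Cxcl12* lies on chromosome 6 at 117144945-117158328 (plus strand, GRCm39) and *Kitl* on chromosome 10 at 99851492-99936278 (plus strand). *Il7* and *Csf1* are both on the minus strand of chromosome 3, at 7635054-7678825 and 107648364-107667806. *Il34* is on chromosome 8 at 111423928-111532584 (minus strand) and *Kit* on chromosome 5 at 75735576-75817404 (plus strand). *Ackr3* and *Cxcr4* share chromosome 1, at 90131689-90144473 (plus strand) and 128515936-128520044 (minus strand). All 8 are annotated as protein coding. Reads within introns were counted along with exonic reads.

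Among the 4 gates all 5 ligands were highest in the reticular one in the control libraries. *Cxcl12* stood at 20890 and 20914 CPM there and every control barcode of the gate held at least 1 of its UMIs. It was at 1446 and 1515 CPM in the metaphyseal stromal gate, 522 and 549 CPM in the endothelial gate and 65.1 and 56.5 CPM in the osteoblast gate. The 2 control libraries lay close together in each gate and no gate overlapped the next. *Kitl* ran from 3164 and 3119 CPM in the reticular gate through 398 and 418 CPM in the endothelial and 276 and 290 CPM in the metaphyseal stromal gate to 15.3 and 14.3 CPM in osteoblasts. The endothelial gate was thus above the metaphyseal stromal gate for *Kitl* and below it for *Cxcl12*.

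The other 3 ligands had other orders below the reticular gate. *Il7* was at 91.5 and 102 CPM in the reticular and 14.7 and 15.4 CPM in the metaphyseal stromal gate. It had 0 and 5 UMIs in control osteoblasts and 0 and 3 in control endothelial barcodes. *Csf1* had the shallowest gradient, with 524 and 524 CPM in reticular, 219 and 221 in metaphyseal stromal, 36.8 and 33.9 in endothelial and 15.5 and 9.53 in osteoblast barcodes. *Il34* was at 415 and 432 CPM in the reticular gate and below 10 CPM in each control library of the other 3. It was at 145 and 133 CPM in barcodes with smooth muscle and pericyte markers.

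The 6 pairs of gates were compared in the controls by edgeR in 1 fit with library as a block. The 5 ligands passed the filter on low counts (detection in 20% or more of a gate's barcodes) and *Kit*, *Cxcr4* and *Ackr3* did not. For *Cxcl12*, *Kitl* and *Csf1* all 6 pairs passed an adjusted p of 0.05. *Il7* and *Il34* passed the filter only through the reticular gate, in which they were high, so their comparisons are a description. Most genes differ between cell types as different as these. Of all 7504 genes tested, 59.8% passed between reticular and metaphyseal stromal sums, 83.4% between reticular and osteoblast, 77.5% between reticular and endothelial, 72.2% between metaphyseal stromal and osteoblast, 74.0% between metaphyseal stromal and endothelial and 85.0% between osteoblast and endothelial sums. The reticular gate exceeded the metaphyseal stromal gate by 3.75 ± 0.08 (SE) for *Cxcl12*, 3.41 ± 0.05 for *Kitl*, 2.62 ± 0.14 for *Il7*, 1.18 ± 0.07 for *Csf1* and 5.68 ± 0.12 for *Il34*, all as differences in log2 level. The 2 pairs of neighbours that did not differ beyond their spread were osteoblast and endothelial sums for *Il7* (0.62 ± 1.17, adjusted p = 0.628) and for *Il34* (-0.25 ± 0.34, adjusted p = 0.496). *Kitl* was higher in endothelial than in metaphyseal stromal sums by 0.46 (SE 0.05, adjusted p = 1.1e-06).

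**Figure D1:**
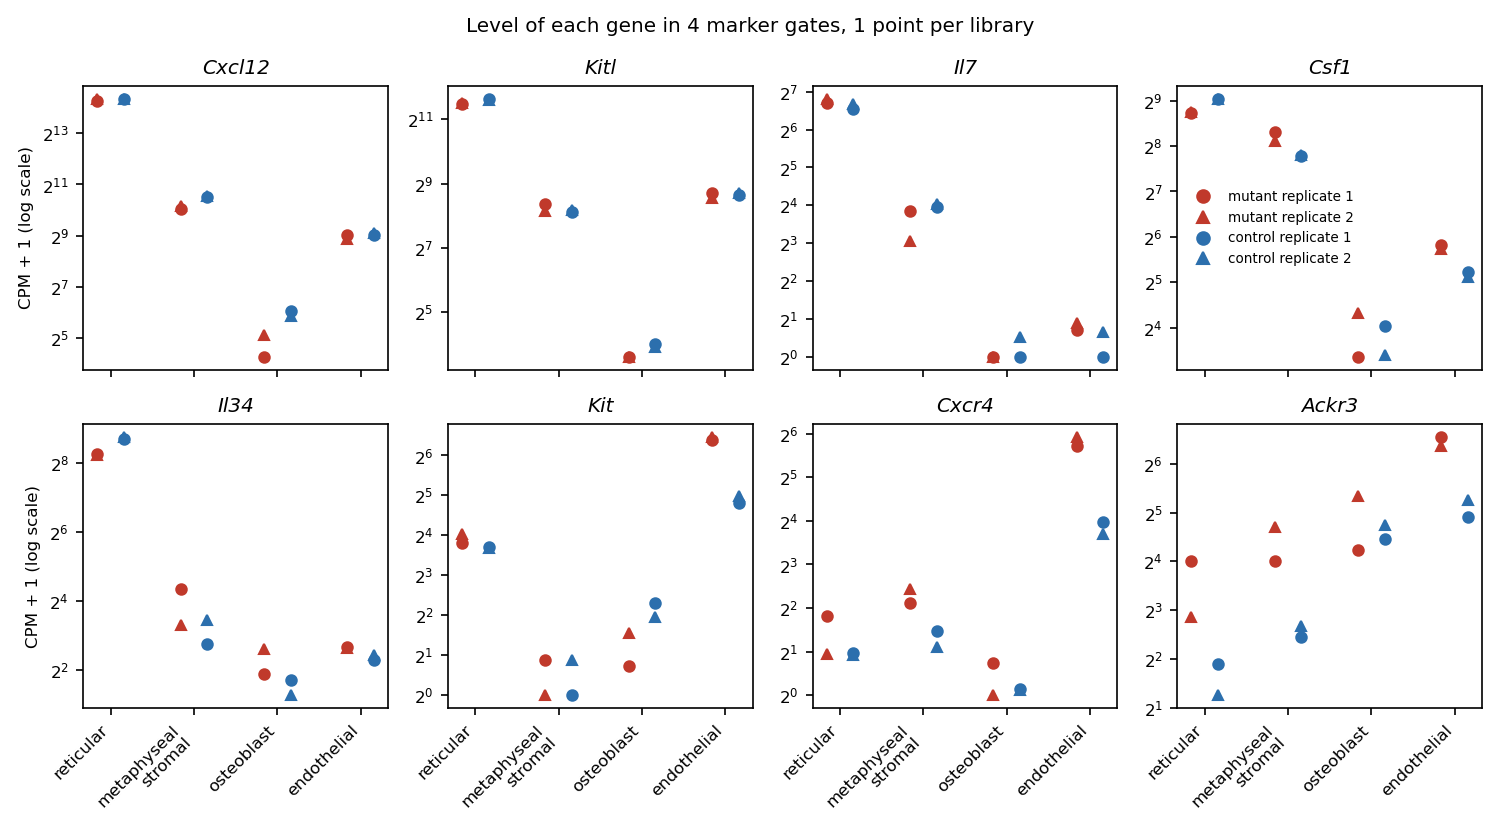
Level of each of the 8 genes in the reticular, metaphyseal stromal, osteoblast and endothelial gates (vertical axis, CPM + 1 on a log scale; 1 point per library, red for mutant and blue for control, with the replicate shown by shape). Of these gates the reticular one has the highest level of the 5 ligands, *Cxcl12* at 20890 and 20914 CPM in controls, and *Kit* and *Cxcr4* are highest in the endothelial gate, where both red points lie above both blue ones.

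Among the 4 gates *Kit* was highest in the endothelial one, at 26.9 and 30.8 CPM in the controls. Reticular barcodes followed with 12.1 and 11.9 CPM, osteoblasts had 3.97 and 2.88 CPM and metaphyseal stromal barcodes 0 and 0.854 CPM. *Cxcr4* was at 14.7 and 12.0 CPM in control endothelial barcodes and between 0.0899 and 1.80 CPM in the control libraries of the other 3 gates. *Ackr3* was at 29.0 and 37.3 CPM in endothelial and 20.9 and 25.99 CPM in osteoblast barcodes, and at 5.41 CPM or less in each control library of the other 2 gates. Its higher levels lay outside the 4 gates, at 65.9 and 63.4 CPM in barcodes with chondrocyte markers and 499 and 395 CPM in the few barcodes (45 and 58) with fibroblast markers. Most *Kit* and *Cxcr4* transcripts of the control libraries were in none of the 4 gates. Barcodes outside the 4 gates held 451 and 509 *Kit* UMIs and 469 and 428 *Cxcr4* UMIs in the control libraries. The 33 and 32 control barcodes with leukocyte markers had 77.4 and 207 CPM of *Kit* and 182 and 83.5 CPM of *Cxcr4*. They held only 219749 and 299475 UMIs of all genes, so most *Kit* and *Cxcr4* transcripts outside the 4 gates lay in other barcodes. The endothelial gate held 19.8% and 19.5% of the *Kit* UMIs and 14.6% and 12.5% of the *Cxcr4* UMIs of a control library.

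The level of *Cxcl12* in reticular cells did not differ detectably between genotypes. It was at 19637 and 20826 CPM in the mutants and 20890 and 20914 CPM in the controls, a mean of 20232 ± 841 (SD, n = 2) against 20902 ± 17.1. Both mutants lay below both controls, and the means differed by less than the 2 mutant libraries did. The fitted log2 fold change, mutant over control, was -0.00 ± 0.05 (SE, edgeR adjusted p = 0.994). The scaling used in the fit (TMM) raised log2 fold changes in this gate by 0.047 against the scaling by totals that CPM uses. Within the mutant libraries the cells spread further. The 10th percentile of cells was at 7877 and 9569 CPM against 12478 and 12705 CPM in the controls, while the medians were 20826, 21242, 20908 and 20870 CPM.

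*Kitl* in reticular cells was at 2848 and 2918 CPM in the mutants and 3164 and 3119 CPM in the controls, with no overlap. The log2 fold change was -0.08 ± 0.05 (adjusted p = 0.230). Its 10th percentile over cells was at 765 and 902 CPM in the mutants and 1289 and 1238 CPM in the controls. With a reticular gate of 3 markers instead of 4, both genes did pass the test, *Cxcl12* at -0.14 (adjusted p = 0.0054) and *Kitl* at -0.19 (adjusted p = 0.0019), and *Kitl* also passed at -0.15 (adjusted p = 0.033) when no filter on low counts was set.

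In the whole suspension the same genes were far lower in the mutants. Over all kept barcodes *Cxcl12* was at 1172 and 1303 CPM in the mutants and 3470 and 3300 CPM in the controls. The log2 fold change was -1.38 ± 0.06 (adjusted p = 5.6e-08). *Kitl* was at 231 and 257 against 570 and 527 CPM, a fold change of -1.10 ± 0.06 on the log2 scale. All 5 ligands were lower (*Il7* -1.21, *Csf1* -0.77, *Il34* -1.04) and all 3 receptors higher (*Kit* 0.37, *Cxcr4* 0.43, *Ackr3* 1.67), so 8 of 8 members were called where 55.5% of all 23383 genes were. The share of barcodes in the reticular gate moved with the ligands, and what part it had in their difference was not tested. Outside the reticular gate *Cxcl12* was at 248 and 299 CPM in the mutants and 680 and 667 CPM in the controls. This set includes 632 barcodes with reticular markers that were left out of the gate for passing another. Of its *Cxcl12* UMIs, 10106 of 13811 and 14294 of 18577 in the mutants lay outside all 4 gates. In the controls these were 35407 of 43865 and 35839 of 44659. The *Cxcl12* level in empty droplets, a measure of free RNA, was 1111 and 1305 against 3190 and 2988 CPM.

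**Figure D2:**
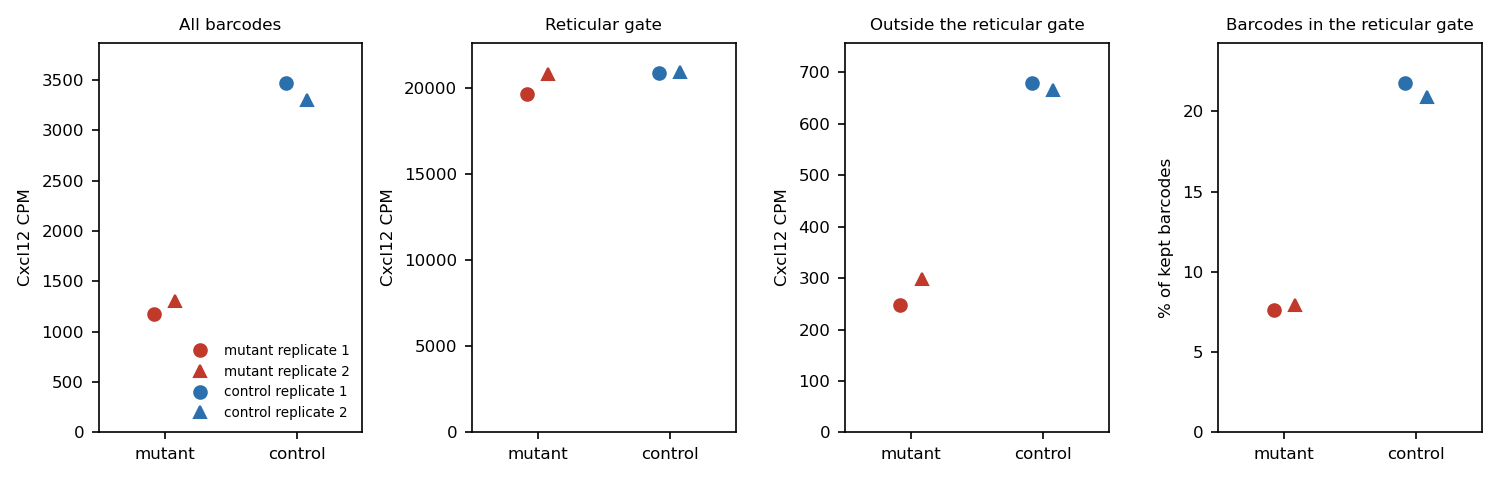
*Cxcl12* in each library (points, red for mutant and blue for control) over all kept barcodes, in the reticular gate and outside it (CPM), and the percent of kept barcodes that fell in the reticular gate. Over all barcodes and outside the gate the mutants are lower (1172 and 1303 against 3470 and 3300 CPM over all), and within the gate the 4 libraries lie between 19637 and 20914 CPM. The set outside the gate includes barcodes with reticular markers that also passed another gate.

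The reticular gate held most of the *Cxcl12* UMIs of each library, 79.9% and 78.2% in the mutants and 83.1% and 82.4% in the controls. The means differed by -3.75 percentage points. An exact two-sided permutation test gave p = 0.3333, the smallest that 2 against 2 libraries allow. For *Kitl* the reticular share was 58.9% and 55.6% in the mutants and 76.7% and 77.0% in the controls, and the endothelial share 14.4% and 13.1% against 5.27% and 5.39%. For *Csf1* (33.2% and 32.5% against 62.6% and 62.9%) and *Il34* (45.1% and 44.6% against 80.4% and 79.1%) the mutant shares were the lower ones without overlap. For *Il7* the share was between 73.8% and 77.3% in all 4 libraries.

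**Figure D3:**
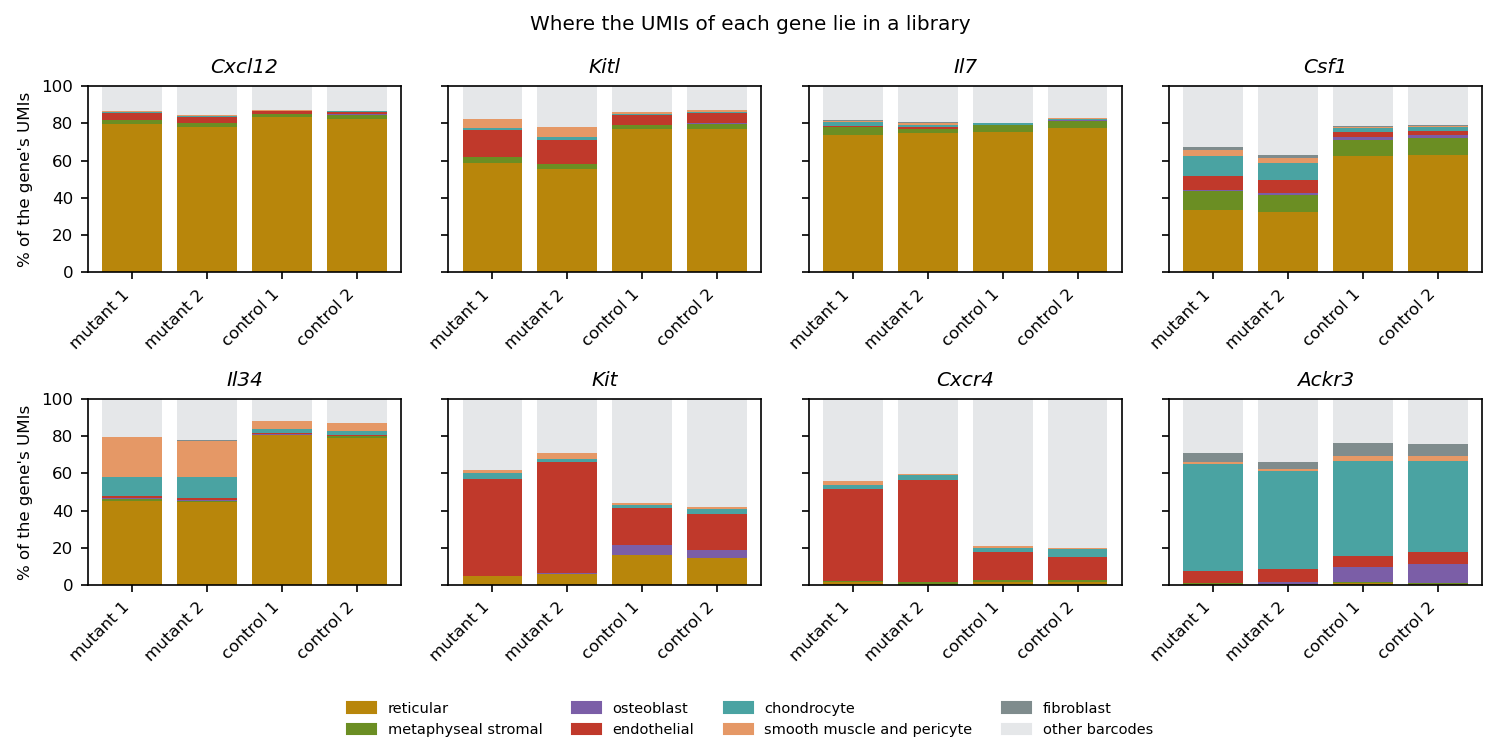
Percent of the UMIs of each gene in a library (stacked bars, 1 bar per library) that lay in the named gates, with all remaining barcodes in light grey. The reticular part of the *Csf1* and *Il34* bars is smaller in the 2 mutant libraries (32.5% to 45.1%) than in the controls (62.6% to 80.4%), and the endothelial part of the *Kit* and *Cxcr4* bars is larger.

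Outside the reticular gate *Cxcl12* was lower in 2 of the stromal gates. In metaphyseal stromal barcodes it was at 1045 and 1129 CPM in the mutants and 1446 and 1515 CPM in the controls, without overlap. The log2 fold change was -0.39 ± 0.07 (adjusted p = 8.0e-04). The markers of this gate also differ by genotype, with a summed level of 3351 and 3006 CPM in the mutants and 6134 and 5650 CPM in the controls, and *Limch1*, *Wif1* and *Hs3st5* lowest relative to controls. *Postn* went the other way, at 739 and 737 against 469 and 387 CPM. With 4 of 6 markers required the difference was -0.15 (adjusted p = 0.279), and with 2 of 6 it was -0.86, so its size depends on which cells the gate takes in. Numbers of cells in this gate are therefore not compared.

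In osteoblasts *Cxcl12* had 27 and 68 UMIs in the mutants and 672 and 628 in the controls, or 17.9 and 33.2 against 65.1 and 56.5 CPM. The mutant osteoblast barcodes were shallower, with medians of 12172 and 13085 against 17473 and 18492 UMIs, and their median mitochondrial share was 5.32% and 5.04% against 3.80% and 3.95%. The part of either in the difference was not tested. The log2 fold change was -1.17 ± 0.17 (adjusted p = 1.5e-04). Free RNA at the measured share would give 50.5% and 40.9% of the mutant and 54.5% and 58.1% of the control level. With free RNA subtracted, the difference was -0.83 and did not pass (adjusted p = 0.073). In endothelial cells *Cxcl12* was at 515 and 460 against 522 and 549 CPM (-0.06 ± 0.06, adjusted p = 0.426).

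*Kitl* passed the test in no gate. It was at 332 and 280 against 276 and 290 CPM in metaphyseal stromal (0.16 ± 0.09, adjusted p = 0.219), 11.3 and 11.2 against 15.3 and 14.3 CPM in osteoblast (-0.38 ± 0.22, adjusted p = 0.395) and 412 and 376 against 398 and 418 CPM in endothelial barcodes (0.03 ± 0.06, adjusted p = 0.702). The mutant and control libraries overlapped in the metaphyseal stromal and endothelial gates. In osteoblasts *Kitl* passed the filter through the controls alone, in which it was higher, so its value there is a description.

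The endothelial gate is a mixture, and the levels of both ligands were uneven within it. Barcodes with a UMI of *Stab2*, a scavenger receptor gene known from sinusoidal endothelium, were 19.1% and 19.8% of the gate in the mutants and 39.4% and 38.1% in the controls. In these barcodes *Cxcl12* was at 123 and 174 CPM in the mutants and 122 and 138 CPM in the controls. In those without a *Stab2* UMI it was at 623 and 545 against 888 and 936 CPM, and *Kitl* at 493 and 449 against 666 and 714 CPM. Both mutant libraries were below both controls there. With a *Stab2* UMI, *Kitl* was at 122 and 134 against 104 and 104 CPM. A division by *Apln*, the apelin gene, gave another picture. The study reports apelin as upregulated in mutant metaphyseal endothelial cells, so the division may not pick the same cells in both genotypes. Without an *Apln* UMI, *Kitl* was higher in the mutants, at 526 and 510 against 423 and 447 CPM, and *Cxcl12* overlapped, at 561 and 600 against 571 and 590 CPM. These divisions were chosen after the data were seen and carry no test. The 10% of endothelial cells with the most *Cxcl12* held 67.9% and 70.0% of the *Cxcl12* UMIs in the mutants and 59.1% and 57.1% in the controls, while in reticular cells the top 10% held 19.4% to 22.1%.

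Of the 8 genes, 5 passed the filter in the reticular gate, and 2 of these, *Csf1* and *Il34*, were called, both lower in the mutants. Of all 5050 genes tested in that gate 37.2% were called, so 2 of 5 is close to the background. *Il34* was at 309 and 302 CPM in the mutants and 415 and 432 CPM in the controls, with a log2 fold change of -0.42 ± 0.06 (adjusted p = 9.7e-05). *Csf1* was at 424 and 426 against 524 and 524 CPM, with -0.25 ± 0.05 (adjusted p = 0.0025). The genotypes did not overlap for either gene. Marker levels moved in the same gate. Metaphyseal stromal markers summed to 465 and 434 against 707 and 703 CPM and osteoblast markers to 2470 and 2632 against 3482 and 3343 CPM. The gate's own markers did not move as a set. *Adipoq* (1926 and 1980 against 1278 and 1297 CPM), *Lpl* (2953 and 2954 against 2004 and 2028 CPM) and *Esm1* (1024 and 1041 against 877 and 881 CPM) were higher in the mutants. *Lepr* was lower, at 1767 and 1899 against 1957 and 1938 CPM, and *Hp* and *Kng1* overlapped. The median mitochondrial share of these barcodes was 3.81% and 3.86% against 2.996% and 3.12%. Their part in the 2 differences was not tested. Without control replicate 1 the call for *Csf1* was lost (-0.26, adjusted p = 0.056).

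Both were lower also when reticular barcodes were divided by a UMI of *Cbln1*, which a part of these cells express. *Il34* was at 393 and 315 against 473 and 470 CPM with and 268 and 295 against 391 and 417 CPM without a *Cbln1* UMI. *Csf1* was at 421 and 438 against 539 and 534 CPM with and 426 and 420 against 517 and 520 CPM without it. *Il7* in the whole reticular gate was at 103 and 111 CPM in the mutants and 91.5 and 102 CPM in the controls. The lower mutant library lay just above the higher control (log2 fold change 0.20 ± 0.08, adjusted p = 0.066).

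*Csf1* went the other way in the metaphyseal stromal and endothelial gates. Over all barcodes outside the reticular gate it was at 42.7 and 45.5 CPM in the mutants and 50.2 and 46.1 CPM in the controls. These include the barcodes left out of that gate for passing another. In the metaphyseal stromal gate 3 members passed the filter, and *Csf1* and *Cxcl12* were called, where 25.5% of all 5494 genes were. *Csf1* was at 314 and 275 CPM in the mutants and 219 and 221 CPM in the controls there, a log2 fold change of 0.47 ± 0.09 (adjusted p = 8.2e-04). With 2 markers for this gate it was 0.19 and did not pass (adjusted p = 0.169). Markers of other types moved in this gate too. Reticular markers summed to 542 and 529.5 against 432.5 and 448 CPM, with *Lpl* and *Esm1* higher and *Lepr* and *Hp* lower in the mutants. Smooth muscle and pericyte markers summed to 205 and 200 against 110 and 127.5 CPM. Their part in the *Csf1* difference was not tested. In endothelial cells *Csf1* was at 55.7 and 52.6 against 36.8 and 33.9 CPM (0.69 ± 0.10, adjusted p = 9.0e-06). Detection was in 25.0% and 27.7% of mutant and 18.4% and 17.0% of control barcodes, so *Csf1* passed the filter through the mutants alone. Its endothelial values are therefore a description. In osteoblasts it had 9.27 and 19.03 against 15.5 and 9.53 CPM, which overlapped, and did not pass the filter.

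The difference between gates was tested in 1 fit of the 16 sums of gate and library. The genotype effect on *Csf1* was larger in metaphyseal stromal than in reticular sums by 0.74 ± 0.13 on the log2 scale (adjusted p = 0.0016), and larger in endothelial than in reticular sums by 0.95 ± 0.16 (adjusted p = 3.9e-04). *Csf1* was the 1 member called in each of these comparisons, where 7.0% (544) and 20% (1555) of all 7774 genes were. *Kit* and *Cxcr4* were below the filter of this fit, and the endothelial count is close to the background. In osteoblast against reticular sums 2 members were called, *Cxcl12* (-1.22 ± 0.20, adjusted p = 0.0022) and *Ackr3* (-2.01 ± 0.53, adjusted p = 0.039), against 5.0% (389) of genes. *Ackr3* entered this fit only through its detection in mutant endothelial barcodes, so nothing is read from this count. The *Cxcl12* value rests on the osteoblast sums with their free RNA, and the *Ackr3* value on 42 and 20 mutant and 28 and 14 control UMIs in the reticular gate. The *Ackr3* difference was -0.94 without mutant replicate 1 and -3.25 without mutant replicate 2. Without control replicate 1 neither was called.

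*Il34* was low in the other 3 gates, with 19.2 and 8.84 against 5.69 and 9.96 CPM in metaphyseal stromal barcodes. In barcodes with smooth muscle and pericyte markers *Il34* was at 159 and 138 CPM in the mutants and 145 and 133 CPM in the controls, which overlapped. Those barcodes were 6.23% and 6.06% of the mutant and 3.48% and 3.56% of the control libraries.

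**Figure D4:**
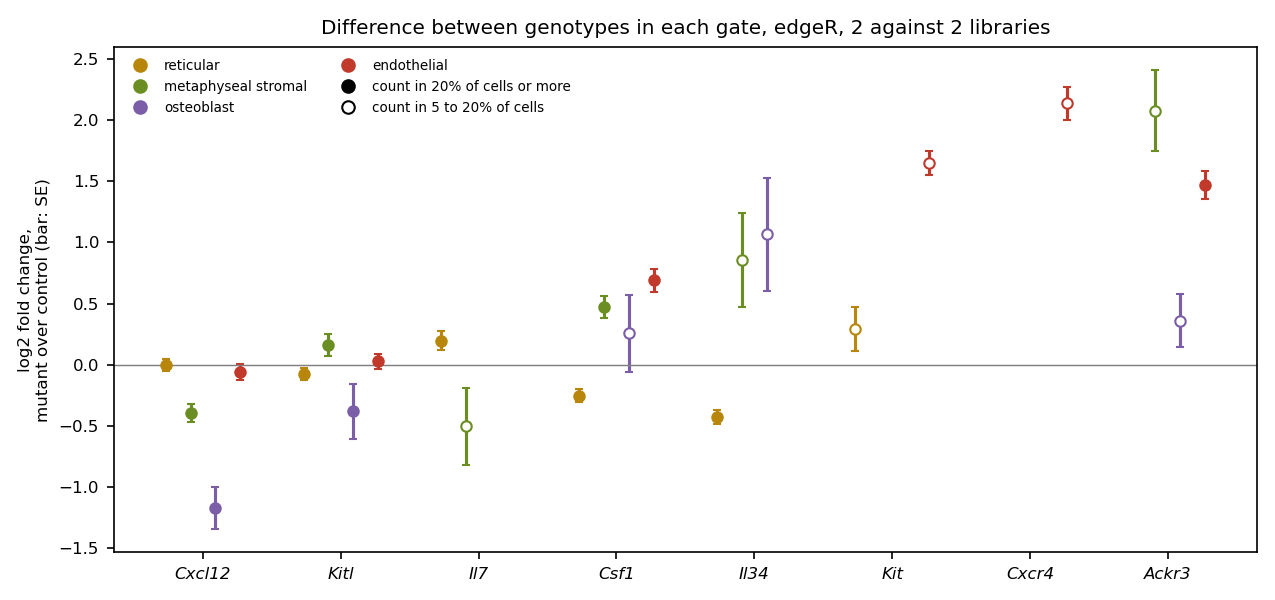
log2 fold change of mutant over control for each gene (horizontal axis) in the 4 gates (colours), with its SE as a bar. Filled points passed the filter of a count in 20% of cells, and open points a filter of 5%. *Csf1* is below 0 in the reticular gate (-0.25) and above 0 in the metaphyseal stromal (0.47) and endothelial (0.69) gates, and the 3 receptors are above 0 in the endothelial gate.

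*Kit*, *Cxcr4* and *Ackr3* were all higher in the endothelial cells of the mutants. *Ackr3* was at 92.2 and 81.7 CPM in the mutants and 29.0 and 37.3 CPM in the controls, and 31.0% and 32.4% of cells held a UMI against 13.4% and 14.7%. Its log2 fold change was 1.47 ± 0.11 (adjusted p = 6.7e-09). It passed the 20% filter through the mutants alone. *Csf1* and *Ackr3* were the 2 members called in the endothelial gate, of 4 that passed the filter, where 62.5% of all 5605 genes were called. Both entered through the group in which they were high, so nothing is read from this count.

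*Kit* and *Cxcr4* stayed below that filter in both genotypes. *Kit* was at 83.3 and 87.0 CPM in the mutants and 26.9 and 30.8 CPM in the controls, and 18.7% and 20.7% of cells held a UMI against 9.95% and 9.78%. *Cxcr4* was at 51.2 and 59.6 against 14.7 and 12.0 CPM, with 12.5% and 16.7% of cells against 6.55% and 4.76%. The genotypes were far apart for both genes. With each cell thinned to 1000 UMIs the shares were 4.91% and 6.85% against 2.14% and 2.19% for *Kit*, and 3.403% and 4.32% against 1.89% and 0.644% for *Cxcr4*. Median depth was 6419 and 6098 UMIs in the mutant and 5550 and 5295 UMIs in the control endothelial barcodes.

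With the filter lowered to 5% of cells, which was chosen after the data were seen, the log2 fold change was 1.65 ± 0.10 for *Kit* (adjusted p = 3.4e-09), 2.14 ± 0.13 for *Cxcr4* (adjusted p = 4.9e-09) and 1.47 ± 0.11 for *Ackr3* (adjusted p = 5.4e-08). Then 4 of 6 members tested in the endothelial gate were called, against 45.8% of all 10778 genes. Without each library in turn these fold changes were 1.55 to 1.75 for *Kit*, 2.00 to 2.29 for *Cxcr4* and 1.29 to 1.67 for *Ackr3*. Free RNA at the measured share would give at most 0.960% of the *Kit* level, 1.58% of the *Cxcr4* level and 2.22% of the *Ackr3* level in any library.

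Markers of other cell types were read in the same barcodes. The 6 leukocyte markers summed to between 2.03 and 2.66 CPM in the endothelial gate of the 4 libraries, and *Ptprc*, the gene of CD45, was at 0 in 3 of them and at 0.213 CPM in mutant replicate 1. The mast cell and progenitor markers *Cpa3*, *Ms4a2* and *Mpo* were at 0 in both mutant libraries and at most 0.956 CPM in the controls. *Cd34*, which endothelial cells express as well, was at 412 and 408 against 372 and 366 CPM. Platelet and megakaryocyte markers summed to 19.98 and 19.2 CPM in the mutants and 36.4 and 35.4 CPM in the controls. The reticular markers summed to 411 and 428 against 153 and 155 CPM. Of these, *Esm1*, which endothelial cells express too, was at 283 and 287 against 29.9 and 23.5 CPM. *Lepr* was at 90.2 and 86.5 against 69.9 and 58.6 CPM. *Hp* (4.46 and 4.97 against 10.96 and 14.3 CPM) and *Kng1* (0.425 and 0.171 against 1.15 and 0.956 CPM) were lower in the mutants. *Adipoq* (3.4 and 1.88 against 4.775 and 3.25 CPM) and *Lpl* (28.9 and 47.1 against 35.9 and 54.3 CPM) overlapped. The osteoblast markers summed to 151 and 126 against 448 and 651 CPM. The fibroblast markers summed to 247 and 200.1 against 101 and 141 CPM, most of it from *S100a4* (219 and 184 against 89.2 and 122 CPM), while *Pi16* was at 23.9 and 5.57 against 9.20 and 8.80 CPM, *Igfbp6* at 2.98 and 9.76 against 1.59 and 8.80 CPM, and *Dpt*, *Clec3b* and *Slurp1* at 1.53 CPM or less. Metaphyseal stromal markers summed to 179.8 and 165 against 383 and 366 CPM, and erythroid markers to 583 and 669 against 267 and 266 CPM. Barcodes of the erythroid gate had 20.6 and 19.1 against 22.1 and 21.7 CPM of *Cxcr4*. The mitochondrial share was higher in the mutant endothelial barcodes, with medians of 5.67% and 5.90% against 4.68% and 4.59%. The part of any of these in the receptor differences was not tested.

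In each library *Kit* and *Cxcr4* were at a higher CPM in endothelial barcodes with a UMI of *Apln*, a gene known from tip-like endothelial cells, than in those without. The study reports apelin itself as upregulated in mutant metaphyseal endothelial cells. An *Apln* UMI may therefore not pick the same kind of cell in both genotypes. Barcodes with one were 25.9% and 29.9% of the gate in the mutants (137 and 201 barcodes) and 8.44% and 6.82% in the controls (67 and 53). In them *Kit* was at 196 and 191 CPM in the mutants and 63.4 and 90.9 CPM in the controls. *Cxcr4* was at 106 and 124 against 29.2 and 22.3 CPM. In the barcodes without an *Apln* UMI the pattern was another one. *Kit* was at 11.2 and 13.2 CPM in the mutants, below the 21.3 and 23.2 CPM of the controls, and *Cxcr4* was at 15.7 and 13.5 against 12.4 and 10.8 CPM. *Ackr3* was higher in the mutants in both parts, at 112 and 94.0 against 35.8 and 22.3 CPM with and 79.2 and 73.0 against 28.0 and 39.2 CPM without *Apln*. Barcodes with an *Apln* UMI were deeper, with medians between 7974 and 8754 UMIs against 5051 to 5614 UMIs.

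Divided by *Stab2* instead, all 3 receptors were higher in the mutants in both parts. *Kit* was at 91.4 and 111 against 28.8 and 41.8 CPM with a *Stab2* UMI and at 81.1 and 79.8 against 25.2 and 20.4 CPM without. *Cxcr4* was at 32.4 and 28.9 against 2.22 and 1.97 CPM with and at 56.4 and 68.8 against 26.1 and 21.5 CPM without. The values with a *Stab2* UMI rest on 33 and 39 *Cxcr4* UMIs in the mutants and 6 and 5 in the controls. *Ackr3* was at 39.3 and 28.1 against 11.1 and 14.6 CPM with and at 107 and 97.8 against 45.4 and 58.7 CPM without. Both divisions were chosen after the data were seen and are described without a test, and what part the larger share of *Apln* barcodes has in the whole-gate differences was not tested.

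**Figure D5:**
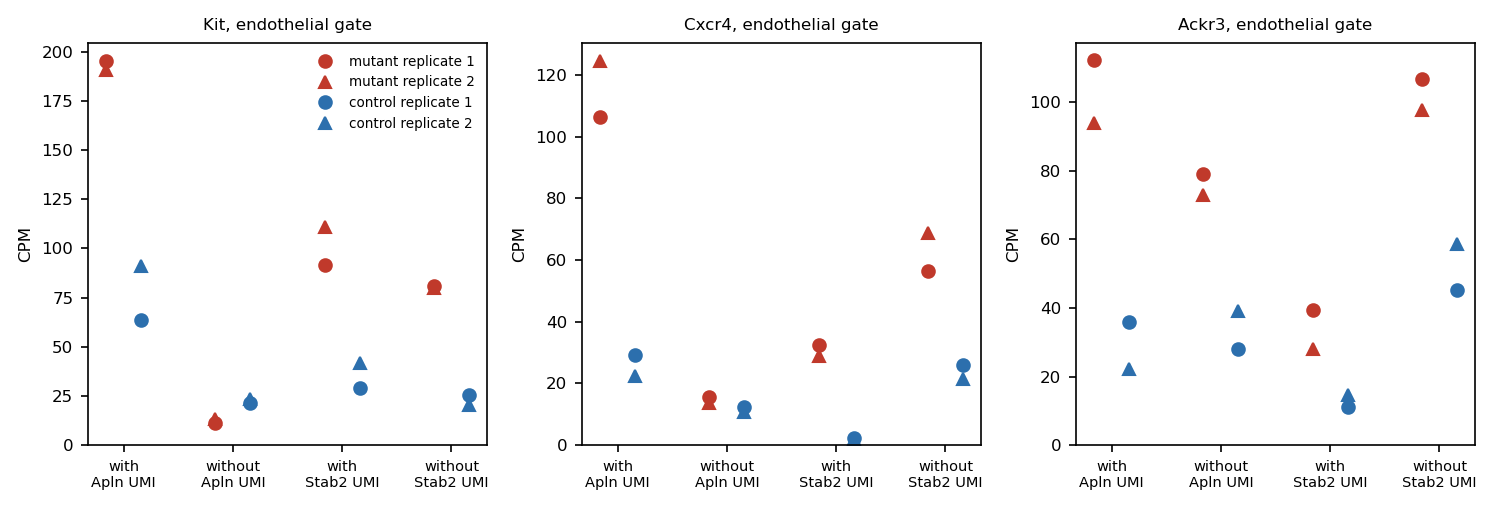
*Kit*, *Cxcr4* and *Ackr3* (CPM, vertical axis from 0) in endothelial barcodes with and without a UMI of *Apln* or *Stab2*, 1 point per library, red for mutant and blue for control. *Kit* is higher in the mutants with an *Apln* UMI (196 and 191 against 63.4 and 90.9 CPM) and lower without one (11.2 and 13.2 against 21.3 and 23.2 CPM), and *Ackr3* is higher in the mutants on both sides.

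Outside the endothelial gate the direction of *Ackr3* varied by cell type. In barcodes with smooth muscle and pericyte markers it was lower in the mutants, at 26.9 and 27.9 against 55.1 and 48.3 CPM without overlap. In metaphyseal stromal barcodes it had 18 and 34 UMIs in the mutants, or 14.99 and 25.1 CPM, and 15 and 19 UMIs in the controls, or 4.49 and 5.41 CPM. In the fit with a 5% filter its log2 fold change was 2.08 ± 0.33 (adjusted p = 2.3e-04), and 3 of 6 members tested in this gate were called against 16.8% of all 10955 genes. It was detected in 6.49% and 6.67% of mutant and 1.43% and 2.22% of control barcodes and so entered that fit through the mutants alone, and nothing is read from the count. Fibroblast markers moved with it, with a summed level of 421 and 487 CPM in the mutant and 80.2 and 82.1 CPM in the control barcodes of this gate, with 2 of its 6 genes at 10 CPM or more. These were *S100a4*, at 372 and 411 against 56.0 and 50.8 CPM, and *Igfbp6*, while *Dpt*, *Clec3b*, *Pi16* and *Slurp1* were at 2.56 CPM or less. Their part in the difference was not tested. In osteoblasts *Ackr3* was at 17.9 and 39.5 against 20.9 and 25.99 CPM, which overlapped. In reticular barcodes it was at 15.1 and 6.26 against 2.71 and 1.40 CPM, of which free RNA would give between 12.0% and 71.1%. In osteoblasts 2 members passed the 20% filter, *Cxcl12* and *Kitl*, and *Cxcl12* was called where 6.35% of all 6075 genes were. *Kitl* passed that filter through the controls alone.

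In the whole suspension *Ackr3* was at 117 and 109 CPM in the mutants and 36.4 and 37.7 CPM in the controls. Barcodes with chondrocyte markers held 57.4% and 52.6% of its UMIs in the mutants and 50.8% and 48.7% in the controls. In them it was at 138 and 126 against 65.9 and 63.4 CPM, and they made up 34.4% and 32.2% of the mutant and 20.04% and 20.8% of the control barcodes. In fibroblast barcodes *Ackr3* was at 764 and 552 against 499 and 395 CPM. In the mutant libraries 51.8% and 59.9% of *Kit* UMIs and 49.0% and 55.0% of *Cxcr4* UMIs lay in the endothelial gate, above the control shares of 19.8% and 19.5% for *Kit* and 14.6% and 12.5% for *Cxcr4*. In barcodes outside the 4 gates both genes were lower in the mutants. *Kit* was at 6.77 and 5.42 against 9.99 and 10.8 CPM there, and *Cxcr4* at 4.95 and 5.22 against 10.4 and 9.08 CPM. What part this had in the larger endothelial shares was not tested.

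A list of 36 further genes of the marrow niche was read in the same way. It holds other cytokines and chemokines, adhesion molecules, Notch ligands, transcription factors of reticular cells and blood cell receptors. In the reticular gate 18 of them were tested, and 15 of these met the 20% detection filter in both genotypes. Of the 15, 3 were called higher and 7 lower, where 19.15% of all 5050 genes were higher and 18.02% lower. The median log2 fold change of the 18 was -0.15 against -0.00 over all genes tested. *Tgfb1* entered only through the mutants, where it was higher, and *Jag1*, a Notch ligand, only through the controls, where it was higher, so both are given as a description. *Ebf3*, a transcription factor of reticular cells, was at 1846 and 1960 CPM in the mutants and 2828 and 2868 CPM in the controls (-0.54 ± 0.05, adjusted p = 5.7e-06). *Igf1*, a growth factor, was at 237 and 236 against 346 and 356 CPM (-0.52 ± 0.06, adjusted p = 1.8e-05). *Mdk*, the gene of the heparin-binding factor midkine, was at 361 and 384 against 228 and 247 CPM (0.70 ± 0.06, adjusted p = 3.2e-06). *Tgfb1* was at 58.8 and 56.1 against 35.0 and 30.4 CPM, with a count in 23.5% of the mutant and 15.97% of the control barcodes.

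In the metaphyseal stromal gate 14 were tested, with 4 higher and 3 lower, where 13.92% of all genes were higher and 11.61% lower. The median was -0.05 against -0.01 over all genes. *Tgfb1* was at 141 and 181 against 63.8 and 66.3 CPM (1.37 ± 0.12, adjusted p = 3.5e-07). *Spp1*, the gene of the matrix protein osteopontin, was at 20829 and 24201 against 14719 and 15291 CPM (0.64 ± 0.08, adjusted p = 1.2e-05). The stromal transcription factors *Prrx1* (-0.64 ± 0.09, adjusted p = 3.5e-05) and *Ebf3* (-0.57 ± 0.10, adjusted p = 2.6e-04) were lower.

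In osteoblasts 6 were tested, with 3 higher and 1 lower, where 4.72% of all genes were higher and 1.63% lower. The median was 0.56 against 0.00. *Spp1* rose from 1292 and 1664 CPM in the controls to 2148 and 4605 CPM in the mutants (1.20 ± 0.18, adjusted p = 2.3e-04). Mutant replicate 2 also had more *Ibsp*, at 5176 CPM against 2747 CPM in mutant replicate 1 and 2741 and 2806 CPM in the controls. The part of this, and of depth and mitochondrial share, was not tested. *Tgfb1* rose from 97.9 and 111 to 140 and 193 CPM (0.71 ± 0.10, adjusted p = 7.1e-05). *Prrx1* was the 1 gene called lower (-0.45 ± 0.10, adjusted p = 0.0064).

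In endothelial cells 13 were tested. Of the 12 that met the filter in both genotypes, 4 were called higher and 3 lower. Of all genes 31.38% were higher and 31.08% lower, so the share called in the list is close to the background. The median of the 13 was 0.10 against 0.00. *Bmp4*, which encodes a bone morphogenetic protein, was at 75.9 and 71.8 against 24.1 and 25.2 CPM. It entered the test only through the mutants, with a count in 30.5% of their barcodes and 10.9% of those of the controls, so its values are a description. *Icam1*, an adhesion molecule for leukocytes, was at 278 and 295 against 201 and 171 CPM (0.70 ± 0.07, adjusted p = 3.9e-07). *Vcam1*, an adhesion molecule that binds progenitors through integrins, was at 214 and 217 against 424 and 375 CPM (-0.81 ± 0.07, adjusted p = 1.4e-08). *Il15*, a lymphocyte cytokine, was at 31.9 and 29.3 against 44.6 and 41.1 CPM (-0.41 ± 0.11, adjusted p = 0.0026). *Tgfb1* was called higher in the metaphyseal stromal, osteoblast and endothelial gates, and 18, 22, 30 and 23 genes of the list were below the filter in the 4 gates in the order given.

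Over the 16 sums of gate and library, and among 3556 genes with a mean of at least 50 CPM, the 3 genes whose log2(CPM + 1) ran most closely with *Cxcl12* were *Lepr* (Pearson r = 0.995), *Shroom3* (0.994) and *Soat1* (0.992). For *Kitl* they were *Pon2* (0.994), *Vcam1* (0.992) and *Bmp6* (0.990), and for *Ackr3* *Klf4* (0.966), *Tgfb1* (0.933) and *Tob1* (0.932). *Lepr* marks the reticular gate, and 4 sums at a time share a library, so the values describe these sums and carry no p. *Klf4*, a transcription factor of endothelial and other cells, was at 527 CPM in the mutant and 355 CPM in the control endothelial sums, and at 61.3 against 20.7 CPM in the reticular sums (means of 2 libraries).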

How the data were processed

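Single-cell libraries (10x Chromium 3′, version 3) were sequenced from 2 mutant and 2 control preparations of metaphyseal stroma. Per the labels and the study's methods, the authors trimmed reads with cutadapt 3.5 and aligned them to GRCm39 (mm39) with GENCODE M26 annotation, to which CreERT2 and reporter sequences had been added. They counted UMIs with STARsolo 2.7.10a, which shared multi-gene reads by expectation maximisation, so the deposited values are expected counts (9.09% to 9.95% of entries are not whole). Each deposited matrix held every barcode of the list without filtering. Totals were 69636600 to 85899079 UMIs per library.

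Barcodes with at least 1000 UMIs and 800 genes were kept. Gates counted markers with at least 1 UMI, and barcodes in 2 or more gates were left out, which stood in for a doublet caller. For this rule the metaphyseal stromal list counted from 4 markers. The marker numbers were set after the distribution of markers per barcode was seen. The members, marker lists and gene lists were chosen with earlier results of these data known. Expected counts were summed per library and gate and rounded. In a gate, genes were tested if they passed filterByExpr and were detected in 20% or more of one genotype's barcodes. Over all kept barcodes filterByExpr was used alone. Tests were by edgeR 4.0.16 (TMM, quasi-likelihood, R 4.3.3), with calls at a Benjamini-Hochberg adjusted p of at most 0.05 over all genes tested. The test was checked on simulated data. DESeq2 1.42.0 was an alternative. CPM is relative to all UMIs of the sum, with no pseudocount. SE is the fold change divided by the root of the F statistic. TMM moved log2 fold changes by 0.03 to 0.08 against scaling by totals. Free RNA was taken from barcodes of at most 100 UMIs and scaled by hemoglobin. In thinning, 1000 UMIs were drawn per cell. Gene positions came from GENCODE M39 on GRCm39, and matched all 8 Ensembl identifiers. Genes of the further list were named by rule, the 2 largest rises and 2 largest falls per gate among those called and not overlapping between genotypes. In fits of a single gate or of all barcodes, p-values rest on the spread between 2 libraries per genotype. In fits of several gates with library as a block, they rest on the spread left among the sums of gate and library. Leave-one-out fits assume that the lone library varies like the others.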

Additional observations from a re-analysis of the deposited data

Results flagged for a closer look

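In 4 cases the genotype effect on a gene differed between gates by the interaction test. For *Csf1* the effect was larger than in the reticular gate by 0.74 in the metaphyseal stromal gate and by 0.95 in the endothelial gate, in log2 units. Both held without each of the 4 libraries in turn (adjusted p at most 0.041). For *Cxcl12* the osteoblast effect was lower than the reticular one by -1.22, where free RNA would give 40.9% to 58.1% of the osteoblast level. For *Ackr3* the osteoblast effect was lower by -2.01, in a fit it entered only through its detection in mutant endothelial barcodes. It passed the test without mutant replicate 2 and did not pass without any other single library. No group had the 4 samples needed to look for a library that stands apart.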

How the results depend on the processing

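The values that changed are these. In the reticular gate 4 members were called without a filter on low counts (6.99% of all genes) and 4 with the looser gate (45.2%). In the metaphyseal stromal gate 1 was called with the stricter (16.2%) and 1 with the looser gate (40.4%). In osteoblasts 0 were called by edgeR once free RNA was subtracted (5.75%), and also 0 with the 5% filter (4.62%). In the endothelial gate 4 were called without a filter (20.2%) and with the 5% filter (45.8%), with DESeq2 (26.5%) or free RNA subtracted (45.2%) under it too. Differences between gates numbered 3 (metaphyseal stromal, 2.12% of all genes) and 2 (endothelial, 5.35%) without a filter and 2 (endothelial, 19.4%) with the stricter gate. With a library left out, which leaves 1 library in a genotype, the counts of members moved in every gate and in every such comparison. Between control gates 45 of 48 comparisons of members passed without a filter, where 24.4% to 37.8% of all genes did.

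Signs changed only for values near 0 or from few UMIs. *Cxcl12* in the reticular gate was 0.0022 with DESeq2, 0.0022 with RLE factors, 0.0052 from 2000 UMIs, 0.054 with the stricter gate, 0.033 without mutant replicate 1 and 1.5e-05 without control replicate 2 (-0.040 to 0.033 over the libraries left out). In the endothelial gate it was 0.055 with free RNA subtracted and -0.14 to 0.015 with a library left out, and against the reticular gate 0.0046 without a filter and -0.17 to 0.061 with a library left out. *Kitl* in the endothelial gate was -0.036 and -0.014 without mutant or control replicate 1 (up to 0.088). *Csf1* in osteoblasts was -0.36 and -0.087 without mutant or control replicate 2, and -0.12 to 0.88 against the reticular gate. *Ackr3* was -0.34 in osteoblasts without mutant replicate 2, and 0.77 and 0.27 in metaphyseal stromal against reticular sums without mutant replicate 1 or control replicate 2 (lowest -1.24). The cause was not tested.

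Over all genes DESeq2 called 998 against 1877 in the reticular, 704 against 1403 in the metaphyseal stromal and 147 against 386 in the osteoblast gate. Without a filter 2209, 786 and 5528 were called in the metaphyseal stromal, osteoblast and endothelial gates. These came from more genes tested (24508, 24635 and 27383). The shares called were lower, at 9.01%, 3.19% and 20.2% against 25.5%, 6.35% and 62.5% in the main test. In the metaphyseal stromal gate 2163 (40.4%) were called with the looser and 938 (16.2%) with the stricter gate. Without control replicate 1, 853 were called in the reticular, 736 in the metaphyseal stromal and 172 in the osteoblast gate. Without control replicate 2 these were 1101, 841 and 146, and without mutant replicate 1 osteoblasts had 582. Genes whose effect differed from the reticular gate fell to 202 and 245 (of 544), 56 and 42 (of 389) and 614 and 655 (of 1555) without control replicate 1 or 2. In osteoblasts they were 227 and 207 without mutant replicate 1 or 2, in the endothelial gate 1030 without mutant replicate 2, and with the stricter gate 186 in osteoblasts and 323 in the metaphyseal stromal gate. Same-numbered libraries did not deviate together, and with a replicate block the members called stayed at 2, 2, 1, 2 and 8 (all barcodes last). Of all genes 39.4%, 27.6%, 4.61%, 62.4% and 52.8% were called with that block. With 2 libraries per genotype no exact test of a single value could pass.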
